A study of Mus musculus with 2 samples.

Results

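A block of mouse chromosome 3, from 45 to 85 Mb in mm9 coordinates, held DNA fragments that the KI liver library read many times and that the WT liver library did not read. Its members are all cytosines of CpGs in that interval that appear in either library, each strand counted separately. They number 98,979 of the 9,223,013 in the series. The interval was chosen on measured coverage, because CpGs with at least 20 reads in KI and none in WT cluster there, so counts of such CpGs are a description and were not tested. Methylation levels did not enter that choice. KI mice are homozygous for Uhrf1 YP187/188AA, a double alanine substitution knocked into the mouse gene in 129/SV R1 ES cells, and the chimeras were then crossed to C57BL/6 mice. The study's text also names the background as C57BL/C. Liver DNA of 3 KI males and of 3 WT males, all 3 months old and labelled C57BL/6, was pooled by genotype. Each genotype is therefore 1 library, with no spread between animals, and every test on reads compares these 2 libraries only. The genotype field of the KI sample reads knock out, while its title and the study's methods give KI, and it was taken as KI.

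UHRF1 carries DNA methylation through replication. Its SRA domain binds CpGs that are methylated on the parent strand only, its tandem Tudor domain binds histone H3 methylated at lysine 9, and it brings DNMT1 to newly made DNA. The substituted residues lie in the tandem Tudor domain. Reduced representation bisulfite sequencing (RRBS) cuts DNA with MspI at CCGG, keeps short fragments and reads a cytosine as methylated where bisulfite did not convert it. A CpG can thus be measured only where a short MspI fragment is present, survives size selection and maps to a single place in the reference.

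Whole MspI fragments made up part of the sequence read only in KI. Outside CCGG, 278 cytosines of the block had at least 20 reads in KI and none in WT. Of these, 160 lay on fragments without a WT read. The 3 such fragments with the most reads are shown, and the one with the most reads inside a gene. Sequences are from the mm9 reference (plus strand), with the CCGG cut sites at both ends in capitals. All lie on chromosome 3, and each was without a WT read at every CpG between its cut sites.
chr3:74425955-74426118: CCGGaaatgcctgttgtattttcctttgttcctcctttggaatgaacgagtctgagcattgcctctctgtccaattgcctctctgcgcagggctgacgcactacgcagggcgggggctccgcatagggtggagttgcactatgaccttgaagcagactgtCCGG
chr3:78292019-78292184: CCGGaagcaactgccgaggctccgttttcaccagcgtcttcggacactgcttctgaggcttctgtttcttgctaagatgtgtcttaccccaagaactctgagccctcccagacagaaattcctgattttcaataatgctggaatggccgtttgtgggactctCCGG
chr3:61629648-61629821: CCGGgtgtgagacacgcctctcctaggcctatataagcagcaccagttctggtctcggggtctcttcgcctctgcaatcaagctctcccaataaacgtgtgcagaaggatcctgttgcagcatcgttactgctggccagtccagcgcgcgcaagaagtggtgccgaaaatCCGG
chr3:52798572-52798774: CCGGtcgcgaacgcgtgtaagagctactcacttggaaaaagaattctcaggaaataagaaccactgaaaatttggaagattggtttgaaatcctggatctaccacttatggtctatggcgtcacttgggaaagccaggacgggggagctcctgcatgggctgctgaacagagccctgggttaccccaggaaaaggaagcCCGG

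The first of these, 164 bases between genes, had 1665 reads in KI summed over its inner CpGs against 0 in WT, and 90.7% of the KI reads were methylated. Its plus strand was read 96 to 99 times and its minus strand 177 to 181 times at each inner CpG in KI, against 0 in WT. Its CpGs in the cut sites had 279 and 278 reads in KI, against 1 and 0 reads in WT. The second fragment was read on the minus strand only, 280 to 285 times per inner CpG in KI, with a level of 81.8%. The third had 1318 reads in KI and a level of 83.8%, although its left cut site had 298 reads in KI and 165 in WT. A cut site joins 2 fragments, so reads at its cytosines can come from the neighbour. The sequence shown last lies in an intron of Cog6, a subunit of the COG complex that tethers vesicles at the Golgi, with 337 reads and a level of 95.8% in KI. The 6 missing fragments that rank between the third and this one, all between genes, had 354 to 762 reads in KI and levels of 64.9 to 92.3%. In these sums a long read is counted once per CpG on it.

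The KI library listed 68,980 cytosines of the block and the WT library 75,152. At least 20 reads were found at 19,389 cytosines in KI, and 453 of these (2.34%) were not listed in WT. Over the whole series the share was 0.0892%. The reverse was not found: of 17,932 cytosines with at least 20 reads in WT, 0 were absent from KI, which allows a share of up to 0.0167% by counting error, against 0.0435% over the series. The limit of 0.0167% and that for exons below take cytosines as independent. Cytosines on the same fragment share reads, so both limits are too low. The rest of chromosome 3 had 0 such KI-only cytosines among 72,748 and 10 WT-only cytosines. That 0 follows in part from the choice of the interval, which was drawn where KI-only cytosines cluster. Of all reads of the block 51.3% were WT, against 52.5% in the rest of the chromosome. Other intervals of the series held KI-only cytosines as well, with 700 of 12,857 (5.44%) at 70 to 85 Mb of chromosome 18 and 72 of 1,519 (4.74%) at 35 to 40 Mb of chromosome 12, both higher shares than in the block and both with 0 WT-only cytosines. On chromosome 17, from 40 to 85 Mb, 282 of 34,484 were KI-only (0.818%) and 323 were WT-only. Just inside the limit, 16 of the 361 cytosines with exactly 20 reads in KI were not listed in WT, and just outside it 13 of the 334 with 19 reads.

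The 453 KI-only cytosines belonged to 341 CpGs, 112 of which were KI-only on both strands. For 189 of the CpGs there was no WT read on either strand, and 152 had WT reads on the other strand. The KI-only cytosines ran from position 51,000,966 to 78,366,784, a stretch of 27.4 Mb. In it, 3.24% of the cytosines with at least 20 reads in KI were KI-only. The stretch was set by its first and last KI-only cytosine, so it holds all of them by definition. The 6.0 Mb before it had 1,922 cytosines with at least 20 reads in KI, and the 6.63 Mb after it had 3,482. Within the stretch the KI-only cytosines were scattered, in 80 clusters more than 1 kb apart with a median of 3 CpGs. Of the 80 steps of 500 kb in the whole block, 29 held at least 1. Outside the block, 2.32% of 4,734 autosomal steps did. The step at 51.0 Mb had the most, with 47, and the step at 75.0 Mb had 34 of 135. The longest gap without any was 4.25 Mb, from position 54,845,307 to 59,090,653.

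**Figure D1:**
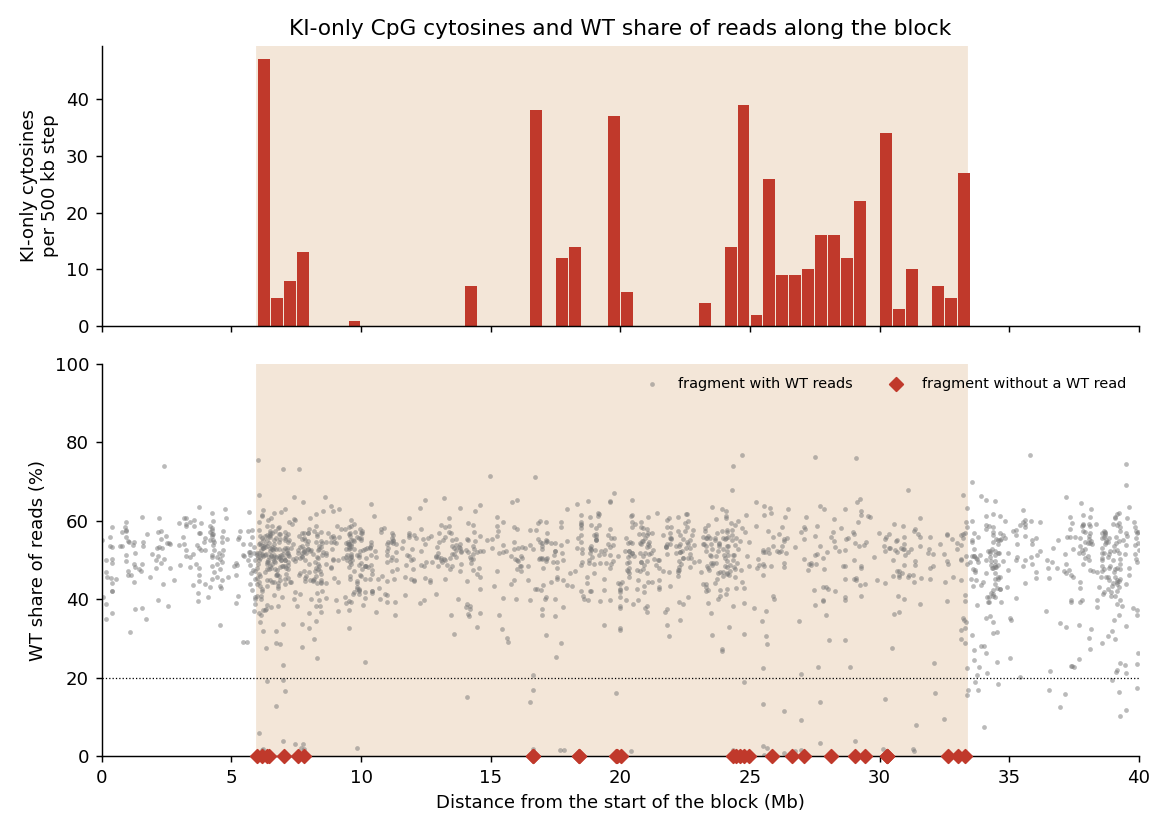
Upper panel, KI-only CpG cytosines (at least 20 reads in KI, not listed in WT) in each 500 kb step, against the distance from the start of the block in Mb. Lower panel, the WT share of the reads (percent) of each MspI fragment with a CpG at 20 or more reads in KI; diamonds are the 31 fragments without a WT read, the dotted line is 20%, and the shading runs from the first to the last KI-only cytosine. Most fragments lie near 50%, and shares close to 0 are found in the shaded stretch only.

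Counted as fragments, with CpGs inside CCGG left out, 1,832 MspI fragments of the block had a CpG with at least 20 reads in KI, and 31 of them (1.69%) had no WT read at any CpG. Over the genome the share was 0.075%, or 133 of 177,380, and 73 of these lay on chromosome 18, of 5,576 there. The rest of chromosome 3 had 0 of 6,836 such fragments, which also follows in part from the choice of the interval. Of 1,708 fragments with a CpG at 20 or more reads in WT, 0 had no KI read, which allows up to 0.176%, against 0.0287% over the genome. Another 58 fragments of the block had WT reads that made up less than 20% of the reads, against 24 in the rest of the chromosome. Together 4.86% of the block's fragments were below 20%, against 0.351% in the rest of the chromosome and 0.333% over the genome. At 20 to 40% the shares were alike, 11.2% of the fragments in the block and 11.8% in the rest of the chromosome.

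**Figure D2:**
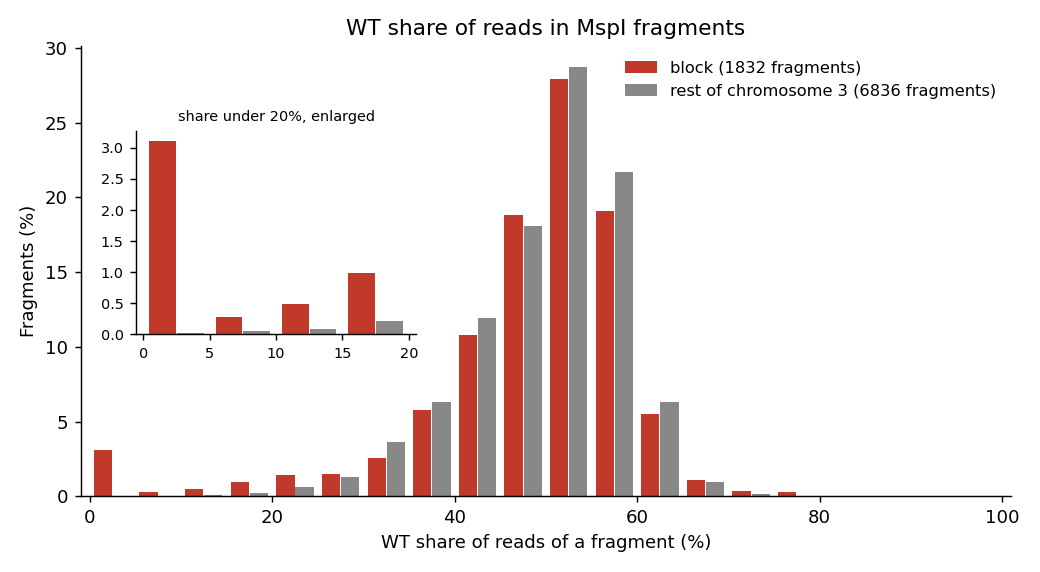
Distribution of the WT share of reads (percent, in bins of 5) over MspI fragments with a CpG at 20 or more reads in KI, for the block and for the rest of chromosome 3, with the bins under 20% enlarged in the inset. The distributions have their peaks at the same share, and the block has an additional group at 0 to 5%.

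The low-share fragments differed along the block. From the first to the last KI-only cytosine, 44 fragments had a WT share above 0 and under 20%, with a median of 3.17%. After it there were 14, with a median of 16.6% and a lowest value of 7.55%, and before it there were 0 among 192. Fragments without WT reads were 109 to 271 bases long, with a median of 173, against 170 for the block's other fragments, and their GC content was 51.8% against 52.4%. Of the 62 nearest measured fragments on either side, 16 had a WT share under 20%, of which 8 were themselves without a WT read, and 36 had one of 40 to 60%. At 21 of the 31 fragments neither cut site had a WT read, and at 8 only 1 of them had WT reads.

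Words of the missing fragments were more often found at several places of the genome than those of the other fragments, but not more often at very many places; no test was run. Each fragment was cut into words of 20 bases, and the copies of each word in mm9 were counted on both strands. The median word of a fragment without WT reads occurred 15 times in the genome (median over 31 fragments), against 22 times for the 58 low-share fragments and 1 time for the 1,743 others. It occurred more than 10 times in 58.1% of the missing fragments, 53.4% of the low-share ones and 37.2% of the others, and more than 100 times in 25.8, 39.7 and 30.4%. The upper quartile was 107 copies in the missing fragments and 554 in the others. For 9 of the 31 (29.0%) it was found in 1 place only, among them the Cog6 fragment. This held for 37.9% of the low-share fragments and 57.3% of the others. The median word of chr3:61629648-61629821 had 494 copies and that of chr3:74425955-74426118 had 14.

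The KI-only cytosines lay outside genes more often than the others. Of the 453, 81.2% were between genes, against 53.3% of all the block's cytosines with at least 20 reads in KI. Introns held 14.1% against 21.7%, the 1 kb on either side of a gene start 4.64% against 18.4%, and exons 0 of 1,287 cytosines, which allows up to 0.233%. Of the 176 protein-coding genes of the block, 11 had a KI-only cytosine. Sis, the intestinal sucrase-isomaltase, had 13 of its 27 well-read cytosines absent from WT. Ppm1l, a protein phosphatase, had 11 of 271, and Fstl5, a follistatin-like protein, had 10 of 199. Naa15, the auxiliary subunit of the NatA N-terminal acetyltransferase, had 9 of 18, and Cog6 had 8 of 75. Med12l, a paralogue of the Mediator subunit Med12, had 7 of 142. Maml3, a coactivator of Notch signalling, and Schip1 had 4 each of 605 and 212. Kcnab1, a potassium channel beta subunit, had 3 of 93, and Ccrn4l and Elf2 had 2 each of 63 and 156. Of the missing fragments, 3 lay in protein-coding genes, all in introns (Cog6, Ppm1l, Kcnab1), 1 lay within 1 kb of a gene start (Mgst2), and 0 overlapped coding sequence.

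Outside CCGG sites, 278 of them averaged 75.5%, against 55.0% for the 11,762 that were also listed in WT, and 4.68% of them were under 20%, against 30.6%. Their median depth in KI was 46 reads, against 56. By fragment, 21 of the 31 missing fragments (67.7%) were above 70% in KI, against 62.1% of the block's other fragments, with medians of 76.1% and 76.0%. Under 20% there were 0 of 31, which allows up to 9.68%, against 14% of the others. The lowest depth was 27 reads summed over a missing fragment. There is no WT level to compare with at these places.

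Where both libraries had reads, methylation of the block was lower in KI. The 26,080 cytosines with 5 or more reads in each library (median 39 reads in KI, 37 in WT) averaged 46.7% in KI and 50.2% in WT. The change was -3.48 percentage points, with a counting error of 0.0519. The rest of chromosome 3 changed by -3.13 points and the other autosomal sequence by -2.88. The block's change was larger than that of the rest of the chromosome by 0.356 points (difference -0.356, 95% interval -0.469 to -0.243, counting error only). The difference depended on weighting, since with reads summed over CpGs it was 0.0351 points (-0.0829 to 0.153). Relative to its WT level, the block lost 6.94% and the rest of the chromosome 6.67%. Compared within the same kind of sequence, the 2 changes lay within 0.176 points of each other. Between genes the block changed by -5.37 points and the rest of the chromosome by -5.22. Within 1 kb of gene starts the values were -0.276 and -0.409 points.

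Methylation was lower in KI in 79 of the 80 steps, with changes of -9.34 to 0.0888 points. Steps with KI-only cytosines had a median of -4.93 points and the other steps one of -4.27. Before the first KI-only cytosine the shared cytosines averaged 58.7% in KI and 64.6% in WT, in the stretch of the KI-only cytosines 46.2% in KI and 49.5% in WT, and after it 41.9% in KI and 44.5% in WT. Of 53 stretches of 40 Mb on the autosomes, 12 had a larger loss than the block. Copies made by PCR and CpGs on the same read were counted as independent, so all intervals here are too narrow.

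**Figure D3:**
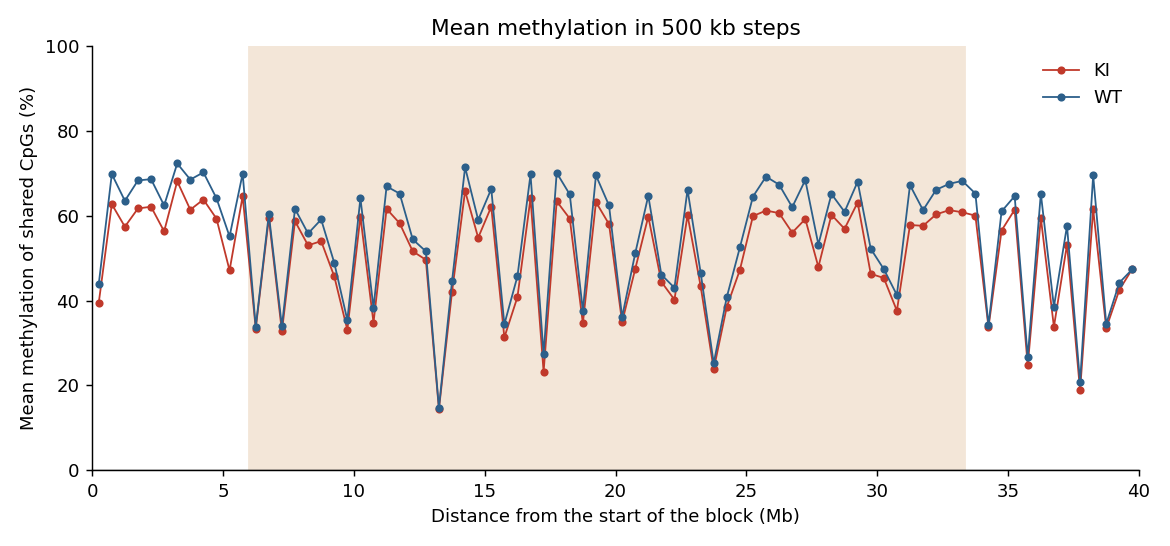
Mean methylation (percent) of the CpG cytosines with 5 or more reads in each library, in KI and in WT, in the 80 steps of 500 kb against the distance from the start of the block in Mb; the shading runs from the first to the last KI-only cytosine. The KI line lies below the WT line in 79 steps, inside and outside the shading.

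Single CpGs with more methylation in KI were frequent in the block. By Fisher's exact test on the reads of each cytosine (two-sided, Benjamini-Hochberg adjusted over all 2,654,195 shared cytosines), with an adjusted p below 0.05 and more than 25 points between the libraries required, 82 cytosines of the block were higher in KI, which is 0.314% of its shared cytosines. The share was 0.0474% over all shared cytosines and 0.0553% in the rest of chromosome 3. Cytosines lower in KI numbered 347, which is 1.33%, against 1.09% over all shared cytosines. The higher cytosines had medians of 55.7% in KI and 5.5% in WT. Outside CCGG, the opposite strand was measured for 61 of them and was also higher in KI at 58, with a median change of 44.1 points.

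The WT level of these CpGs depended on where they lay. In the stretch of the KI-only cytosines, 34 cytosines outside CCGG were higher in KI, with a median of 54.2% in KI and 0% in WT. At 28 of the 34 the WT library had not 1 methylated read, at a median depth of 62 reads in WT. After the last KI-only cytosine, 37 were higher, with a median of 58.5% in KI (quartiles 49.4 and 64.2%) and 14.4% in WT (quartiles 9.76 and 18.2%), and WT was at 0% at 1 of them. Before the first KI-only cytosine there were 0. In the rest of chromosome 3, WT was at 0% at 2 of 40 such cytosines, and in the other autosomal sequence at 114 of 767. 

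**Figure D4:**
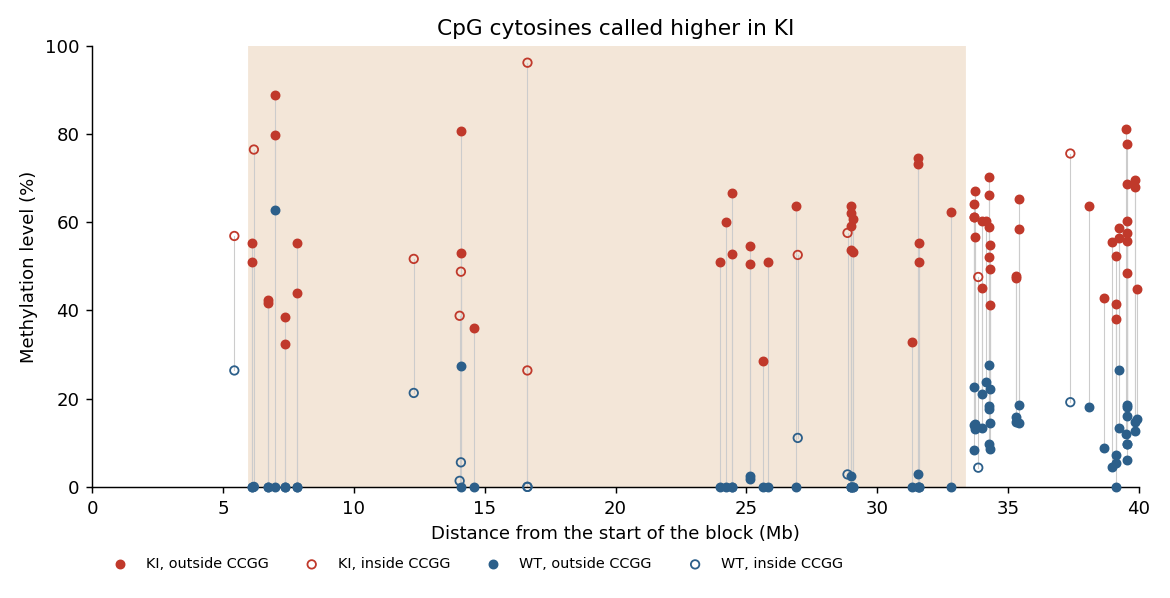
Methylation level (percent) in KI and in WT of the 82 CpG cytosines called higher in KI, against the distance from the start of the block in Mb; a grey line joins the values of a cytosine, open circles are inside CCGG sites, and the shading runs from the first to the last KI-only cytosine. WT values lie mostly at 0% inside the shading and mostly between 5 and 28% to the right of it, while KI values lie mostly between 40 and 70% in both.

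The higher cytosines outside CCGG belonged to 46 CpGs, and 25 of these CpGs were called on both strands. For 8 of the 25 no read of either strand was methylated in WT. Examples from the stretch of the KI-only cytosines and from beyond it are shown with 20 bases of the mm9 plus strand on either side, the CpG in capitals.
chr3:51721825-51721866: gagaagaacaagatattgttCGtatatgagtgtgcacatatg
chr3:52809786-52809827: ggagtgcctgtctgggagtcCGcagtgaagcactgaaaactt
chr3:73994640-73994681: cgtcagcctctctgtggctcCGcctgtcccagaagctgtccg
chr3:79284895-79284936: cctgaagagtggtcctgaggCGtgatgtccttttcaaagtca
chr3:84845475-84845516: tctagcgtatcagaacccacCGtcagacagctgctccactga

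The first CpG, in an intron of Maml3, was methylated in 41.9% of 136 reads in KI (95% Wilson interval 34.0 to 50.3%) and in 0% of 171 reads in WT (0 to 2.2%). The second, in an intron of Cog6, stood at 48.9% of 88 reads in KI and at 0% of 97 in WT. The third, between genes, had the most reads, with 63.6% on the plus strand and 59.2% on the minus strand in KI, against 0% on both strands in WT. Both strands together gave 61.5% of 429 reads in KI (56.9 to 66.0%) and 0% of 432 reads in WT (0 to 0.881%). In the same fragment a further CpG, at 73,994,542, stood at 58.2% in KI and at 1.16% in WT. These 4 CpGs were intermediate in KI and at or near 0% in WT on either strand.

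Beyond the last KI-only cytosine WT was not at 0%. The fourth CpG, in an exon of Fnip2, which encodes a folliculin-interacting protein, stood at 68.9% of 206 reads in KI (62.3 to 74.9%) and at 15.4% of 149 reads in WT (10.5 to 22.1%). The fifth, in an intron of Arfip1, which encodes a protein that binds ARF GTPases, stood at 68.5% of 235 reads in KI (62.3 to 74.1%) and at 13.5% of 333 in WT (10.3 to 17.6%). Arfip1 held 4 such CpGs, with 57.0 to 68.5% in KI and 11.8 to 13.5% in WT. In the annotation used, this gene is long, from 84,300,015 to 85,691,438, and its interval contains Tmem154 and Fbxw7.

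CpGs beside the higher ones mostly did not share the gain. Of the 71 higher cytosines outside CCGG, 57 had another measured CpG within 100 bases. These neighbours had a median of 76.4% in KI and 79.5% in WT, a median change of -2.35 points, while the called cytosines had a median change of 48.8 points. The neighbours were higher in KI at 17 of the 57. Around the third example above, 3 neighbouring CpGs averaged 75.3% in KI and 91.0% in WT. The neighbours of the lower cytosines had moved the same way at 202 of 222, with a median change of -9.47 points. Methylation was lower in KI in 79 of the 80 steps of the block. Neighbours of uncalled CpGs were not counted, so these 2 counts have no baseline.

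**Figure D5:**
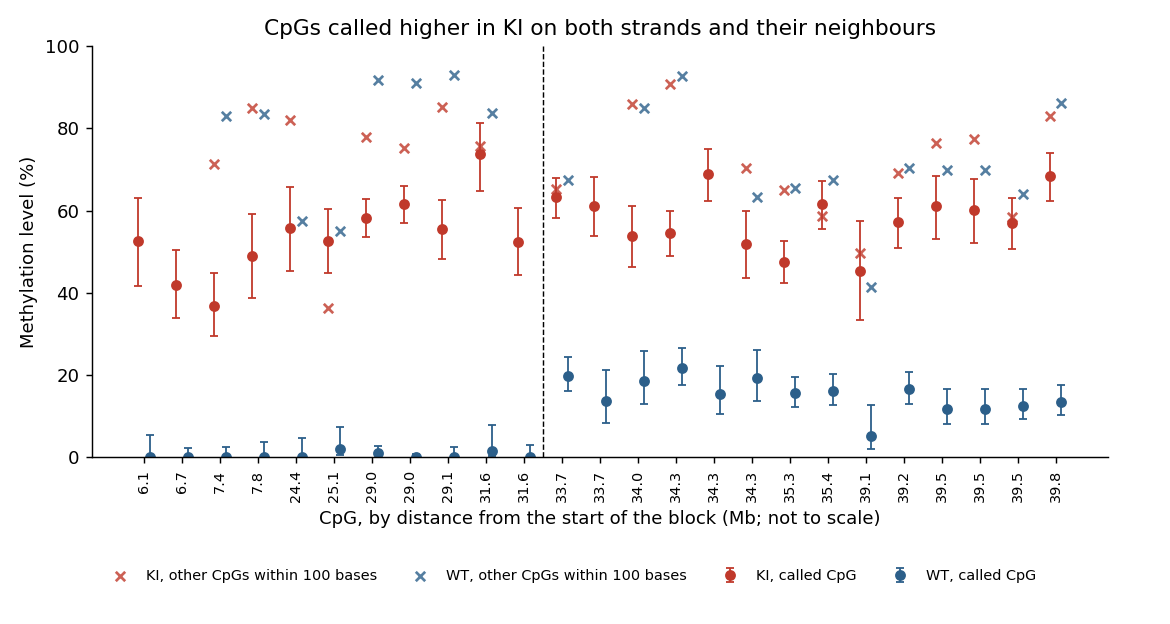
Methylation level (percent, both strands summed) in KI and in WT of the 25 CpGs called higher in KI on both strands, in order along the block, with 95% Wilson intervals (counting error only); crosses are the mean levels of the other CpGs within 100 bases, and the dashed line marks the last KI-only cytosine. Every CpG left of the line is below 3% in WT, and those to its right are at 5.26 to 21.8% in WT. The crosses of KI and WT lie mostly near each other right of the line. Left of it they are mostly further apart, in most cases with WT above KI.

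By size, the largest gains were at position 61,633,958 inside a CCGG (96.2% of 79 reads in KI, 0% of 6 reads in WT), at 51,984,370 (79.7% of 138 reads in KI, 0% of 71 in WT), at 51,179,889 inside a CCGG (76.5% of 51 in KI, 0% of 22 in WT), and at the 2 strands of the CpG at 76,566,453, with 73.2 and 74.5% in KI against 3.03 and 0% in WT. The largest losses were at 77,311,198 inside a CCGG (0% of 55 reads in KI, 100% of 5 in WT), at 70,548,944 inside a CCGG (9.29% of 280 in KI, 97.4% of 38 in WT), at 77,015,316 (14.3% of 7 in KI, 100% of 9 in WT), at 78,656,013 (16.7% of 6 in KI, 95.5% of 22 in WT) and at 61,629,819, the right cut site of a fragment shown above (25% of 76 in KI, 100% of 13 in WT). At the CpG of 77,015,316 the opposite strand stood at 75.0% in KI and 72.7% in WT. Positions 51,179,889 and 61,629,819 are right cut sites of fragments without a WT read at any inner CpG. A cut site can be read from either fragment, and its strands can differ. In the first fragment shown, the right cut site stood at 1.01% on the plus strand and 96.1% on the minus strand in KI. Both differences can therefore not be told apart from the missing WT fragments.

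The 347 lower cytosines were spread over 73 of the 80 steps, and the 82 higher ones over 27. Outside CCGG the lower ones had medians of 43.7% in KI and 78.6% in WT, and the opposite strand was also lower at 237 of 251. None of the 288 lower cytosines outside CCGG was at 0% in KI. Such cytosines were rare elsewhere too, with 12 of 977 in the rest of chromosome 3 and 257 of 21,843 in the other autosomal sequence. The lower share was 2.12% before the first KI-only cytosine, 1.3% in the stretch of the KI-only cytosines and 1% after it, while the higher share was 0.0371, 0.227 and 0.796%. Among the 16,845 cytosines with 20 or more reads in each library, 4 (0.0237%) were under 20% in KI and above 70% in WT, against 0.0123% over the series. The opposite, above 70% in KI and under 20% in WT, was found at 7 (0.0416%), against 0.000934% over the series. With a minimum of 5 reads the order of the 2 counts turned, with 24 low in KI and 16 low in WT. The 7 were 3 in CCGG-free sequence of the KI-only stretch, 1 at a CCGG there and 3 beyond it, in Fnip2, in Arfip1 and at a CCGG between genes. The CCGG cytosine of the KI-only stretch is 51,179,889, the cut site of a missing fragment, so its switch cannot be told apart from the missing reads.

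Higher cytosines and low-share fragments were also found on either side of the block. On the left they were separated from those of the block. From 45 to 50 Mb there were 0 higher cytosines, and 0 of 151 fragments were under 20%. Higher cytosines made up 0.108% of the shared cytosines at 85 to 100 Mb, where WT was at 0% at 0 of the 21 outside CCGG, and 16 of 1,549 fragments there had a WT share under 20%. In the 15 Mb before the block, at 30 to 45 Mb, the higher share was 0.101% and 5 of 756 fragments were under 20%. WT was at 0% at 0 of the 9 higher cytosines outside CCGG there. Together these 2 flanks held 37 of the 56 higher cytosines of the rest of chromosome 3. None of their fragments was without WT reads.

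Of the 133 promoters of the block with at least 5 shared CpGs within 1 kb of the gene's 5′ end, 11 (8.27%) had less methylation in KI and 5 (3.76%) had more. Rbm46 and 4930564K09Rik, both among the 11, rest on the same 81 cytosines. Sohlh2, also among the 11, had 24 cytosines lower and 27 higher in KI. A call required an adjusted p below 0.05 both in Fisher's exact test of the summed reads and in the stratified test of Cochran, Mantel and Haenszel. Over all 16,516 promoters the shares were 7.53% and 1.33%. With 500 bp on each side, 7 were lower and 2 higher. Most promoters of the block carried little methylation, with 103 under 10% in WT. The median change was -0.0452 points, against -0.0531 over all promoters. None of the called promoters had a KI-only cytosine within 1 kb.

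Among liver genes, the promoter of Fgb, the fibrinogen beta chain, had a mean of 26.0% in KI and 39.6% in WT over 14 cytosines, 12 of them lower in KI (adjusted p = 6.7e-09 by Fisher's exact test, 5.3e-10 stratified). Of the 7 genes of this list (plasma proteins and amino acid enzymes), 3 were measured and Fgb alone was called. Bche, a serum cholinesterase, stood at 1.49% in KI and 1.19% in WT, and Slc33a1, an acetyl-CoA transporter, at 0.123% in KI and 0.475% in WT. Gucy1a3, a subunit of soluble guanylate cyclase, had a mean of 1.9% in KI and 17.8% in WT over 5 cytosines, with 207 summed reads in KI and 45 in WT.

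Of 8 measured promoters of signalling receptors and ligands, 2 were higher and 0 lower. P2ry12, an ADP receptor, had a mean of 19.5% in KI and 5.08% in WT over 6 cytosines (adjusted p = 0.012 by Fisher's exact test, 0.019 stratified), none of which was called by itself. Tlr2, a receptor for bacterial lipopeptides, had 1.59% in KI and 0.189% in WT. Il12a, a cytokine subunit, stood at 72.2% in KI and 68.0% in WT and was not called. Of 8 measured cell cycle, chromosome and ubiquitin factors, Trim2, a ubiquitin ligase, was higher, with 46.7% in KI and 36.2% in WT over 14 cytosines. Its 3 higher cytosines carried most of this, since the other 11 averaged 47.5% in KI and 44.9% in WT. Smc4, a condensin subunit, had 0.0223% in KI and 0.28% in WT, and Fbxw7, a ubiquitin ligase subunit, 0.318% in KI and 0.173% in WT.

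Of 10 measured promoters of neuronal channels, adhesion and cytoskeletal genes, Serpini1, a serine protease inhibitor of neurons, was lower, with 9.46% in KI and 11.6% in WT, and 0 were higher. Gria2, a glutamate receptor subunit, had 1.49% in KI and 2.99% in WT and was not called. None of 9 transcription and RNA regulators and none of 8 genes of mitochondria, translation and transport was called. Mab21l1 stood at 23.9% in KI and 34.5% in WT (adjusted p = 0.70 by Fisher's exact test), and Foxo1, a forkhead transcription factor of insulin signalling, at 0.233% in KI and 0.0807% in WT. Gfm1, a mitochondrial elongation factor, stood at 0.588% in KI and 0.217% in WT. The other promoters called lower were those of Rbm46 with the overlapping 4930564K09Rik (9.86% in KI, 14.4% in WT), a U6 copy (49.6% in KI, 57.1% in WT), 1700018B24Rik, Gm16206, Spg20, Sohlh2 and Frem2; Frem2, a protein of basement membranes, stood at 0.72% in KI and 1.48% in WT. Those called higher also included Tmem154 (5.71% in KI, 3.65% in WT) and B3galnt1 (2.3% in KI, 1.06% in WT).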

How the data were processed

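RRBS of liver DNA was analysed for 1 pooled KI library and 1 pooled WT library. Bismark was the mapper used by the authors (version 0.12.20 per the submitters' notes), with mm9 as reference, and reads with more than 1 place were dropped. For every cytosine of a CpG the authors deposited the read count that covers it and the percent of these reads that were methylated or converted. How reads were trimmed and whether duplicates were removed is not given in the sources used here. A thymine in a read counts as an unmethylated cytosine whatever its origin, and reads that do not map uniquely to mm9 are not counted; the part of either in these values was not tested.

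Methylated reads were recovered as coverage times percent, rounded, and were whole at 100% of the cytosines in both libraries. Summed coverage was 173,109,895 in KI and 192,144,002 in WT, with a median of 37 reads per shared cytosine in each. All strands are deposited as F, so the strand of each cytosine was taken from the mm9 sequence. Fragments are the intervals between neighbouring CCGG sites of mm9, counted with CpGs outside CCGG. Genes came from GENCODE for mm9, and pseudogenes were left out. Changes are KI minus WT, and intervals are at 95%.

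Fisher's exact test served for single CpGs and, on summed reads, for promoters, which were also tested with the Cochran-Mantel-Haenszel test, all two-sided and adjusted over the whole table. The block, the gene lists and the tests were chosen with earlier results of these data known. The stretches, neighbours, word copies and flanks were chosen after seeing the data. Named items were the missing fragments with the most KI reads (up to 10, of which 4 are printed), the genes with the most KI-only cytosines (up to 10, with the tie at 2 cytosines kept), the called promoters, the listed genes and the 5 called cytosines with the largest change in each direction; the CpGs printed as sequences were chosen after their values were seen. No fragment was read in WT only. Alternatives were the read minimum, summed strands, CCGG sites, weighting, thinning, a chi-square test and the promoter width. The tests were checked on simulated reads with known changes, at the coverage of chromosome 3 in these libraries. Simulated reads were drawn independently at each cytosine, so the check does not cover PCR copies or CpGs on the same read. Scripts ran in Python 3.11.15 (scipy 1.17.1, numpy 2.4.6, numba 0.67.0, pandas 2.3.3, matplotlib 3.10.9).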

Additional observations from a re-analysis of the deposited data

How the results depend on the processing

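No alternative changed the direction of the block's own change, of the calls or of the KI-only count; of 44 values under alternatives, 33 stayed on the same side and within range. The KI-only count was 214 at a minimum of 50 reads and 207 CpGs with the strands summed, against 453. At a minimum of 10 reads, WT-only cytosines numbered 22 instead of 0, and the rest of chromosome 3 had 49 KI-only cytosines (0.0531%, against 2.35% in the block). The mean change was -3.93 points without CCGG sites and -4.23 with reads summed over CpGs. The difference from the rest of chromosome 3 reversed to 0.0351 points with reads summed, an interval that includes 0; the cause was not tested. Cytosines switching to low in KI numbered 8 at 10 reads and 24 at 5 reads, and those low in WT 16 at 5 reads. With 500 bp on each side, 7 promoters were lower and 2 higher. Cytosines higher in KI stayed between 72 and 88 and lower ones between 255 and 380. No paired analysis was possible because each genotype is 1 pooled library.

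With 1 library per genotype, differences between animals cannot be told apart from the genotype. Depth limits the calls, since 5 reads per library are too few for any call, and a cytosine not listed in WT is one without a counted read, at a WT depth that cannot be known for that place.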
